A study of Mus musculus with 12 samples.

Results

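Oxidative phosphorylation genes were taken from the isoform table as the genes that carry pathway 00190 of KEGG in their annotation, together with the protein genes of the mitochondrial genome, and leaving out symbols that begin with Atp6, which name the acidifying proton pump. The rule gave 106 of the 28852 genes in the table, 93 encoded in the nucleus and 13 in the mitochondrial genome. RNA had been sequenced from BMMCs, mast cells grown from BALB/c mouse bone marrow with IL-3 and SCF, in 4 groups of 3 libraries: SiO2 (silicon dioxide nanoparticles), DNP-HSA (a haptenated albumin, which is the antigen for anti-DNP IgE), DNP-HSA+SiO2, and blank (neither agent). Neither the labels nor the text of the study gives a dose, a time or an IgE sensitization for the sequenced cells. In each group 1 library has no number in its label and the others are numbered 1 and 2. No source says that the libraries of a group came from separate cultures, so a p-value here measures only how far these libraries scatter, which may be technical.

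Oxidative phosphorylation is carried out in the inner mitochondrial membrane. Complexes I and II take electrons from NADH and succinate, complex III passes them by way of cytochrome c to complex IV, and complex IV reduces oxygen. Complexes I, III and IV pump protons as they do so, and complex V, the ATP synthase, makes ATP from the returning flow. Complex II is made only of nuclear gene products, whereas the other complexes also hold subunits that are transcribed and translated inside the mitochondrion, so their assembly draws on both genomes.

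The sequences of mt-Atp8 and of the start of mt-Atp6 are shown first because the levels of both genes were the most variable among the mitochondrial mRNAs and because the genes share bases. Both encode subunits of the membrane part of ATP synthase and lie on the plus strand of the mitochondrial genome in GRCm38, mt-Atp8 at chrMT:7766-7969 and mt-Atp6 at chrMT:7927-8607. The 43 shared bases are in capitals, and the rest is in lower case. The coordinates in the deposited table equalled those of GENCODE M21 (GRCm38) for 418 of 418 isoforms of the members, and the transcript sequences were read from that release.
mt-Atp8 (chrMT:7766-7969, plus strand): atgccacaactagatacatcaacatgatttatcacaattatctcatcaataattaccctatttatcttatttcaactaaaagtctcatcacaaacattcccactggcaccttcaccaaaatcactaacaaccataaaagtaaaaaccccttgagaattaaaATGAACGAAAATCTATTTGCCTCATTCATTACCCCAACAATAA
mt-Atp6, its first 100 bases (chrMT:7927-8026, plus strand): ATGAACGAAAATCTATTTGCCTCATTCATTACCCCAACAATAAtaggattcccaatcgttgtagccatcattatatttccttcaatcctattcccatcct

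The libraries held 55737606 to 76718065 estimated counts (median 66791566), and the members took 3.28% to 6.35% of them. The mast cell label fitted its markers: all 10 mast cell genes had a mean of at least 1 FPKM in each of the 4 groups (9 of 10 over the numbered libraries), and their summed level was 17779 to 27459 FPKM. The libraries did not form 4 groups of like libraries. S100a8, a neutrophil gene, was at 0 in the 4 unnumbered libraries, at 0 to 0.294 FPKM in SiO2 2, DNP-HSA 1, DNP-HSA+SiO2 1 and blank 2, and at 5.89 to 7.19 FPKM in SiO2 1, DNP-HSA 2, DNP-HSA+SiO2 2 and blank 1. Each of these 3 sets holds 1 library of every treatment. The sets were drawn after the values had been seen and are not groups of the study. The summed level of 11 macrophage and neutrophil markers was 14.3 to 17.8 FPKM in the unnumbered libraries and 23.5 to 130 FPKM in the numbered ones.

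Every complex was expressed. Of the 106 members, 100 reached 1 FPKM in 3 or more of the 12 libraries and were tested (87 nuclear and 13 mitochondrial). The 6 below this filter were Atp4a and Atp4b, which encode the gastric proton pump, and Cox4i2, Cox6a2, Cox8b and Ndufa4l2, tissue-restricted relatives of subunits that the cells did express. FPKM is a level per kilobase of transcript, so it allows a rough comparison between genes. It is least sure for short transcripts such as mt-Atp8 (204 bases) and mt-Nd4l (297 bases), beside paired reads of 150 bases. Among the nuclear members that passed, mean levels over the 12 libraries ran between 2.65 and 239 FPKM (median 41.0), and among the 13 mitochondrial mRNAs between 708 and 8918 FPKM (median 2157).

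The nuclear subunits of ATP synthase had the highest median level. Over its 15 nuclear members the median was 109 FPKM, led by Atp5b, the catalytic beta subunit, at 239 ± 40.2 FPKM (SD over 12 libraries, as in the rest of this paragraph) and Atp5a1, the alpha subunit, at 194 ± 33.8. The lowest were Atp5k at 31.0 ± 6.84 and Atp5g1, which encodes the c subunit of the rotor, at 15.5 ± 6.98. In complex IV (17 nuclear members tested, median 61.6 FPKM) the structural subunit genes Cox8a and Cox6a1 stood at 209 ± 46.0 and 177 ± 44.3 FPKM. The lowest members of that complex were Cox6b2, a subunit known from testis, at 5.27 ± 1.79 FPKM and Cox10, which encodes an enzyme of heme A synthesis and not a subunit, at 2.75 ± 0.39 FPKM. In complex III (9 members, median 45.4 FPKM) Uqcrh, which encodes the hinge protein, had 116 ± 17.6 FPKM and Uqcr10 had 79.9 ± 21.6, whereas Uqcrq had 30.5 ± 7.67 and Cyc1, the gene of cytochrome c1, 24.5 ± 4.97. The 4 subunits of complex II were Sdha, the flavoprotein, at 60.6 ± 10.7 FPKM, the membrane anchor Sdhd at 51.4 ± 10.7, the iron-sulfur subunit Sdhb at 43.1 ± 9.68 and the other anchor, Sdhc, at 16.9 ± 3.34. Complex I (38 nuclear members tested) had the lowest median among these complexes, 29.0 FPKM, with the accessory subunit genes Ndufa6 at 78.4 ± 16.6 and Ndufa1 at 77.4 ± 12.7 on top and Ndufb2 at 6.55 ± 1.63 and Ndufc1 at 6.32 ± 1.67 at the bottom. The 4 remaining genes of the annotation that passed were Ppa1 and Ppa2, which encode pyrophosphatases, Lhpp, a phosphatase gene, and Tcirg1, a subunit gene of the acidifying proton pump whose symbol does not begin with Atp6, at 2.65 to 21.8 FPKM.

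Where a subunit has a tissue-restricted alternative, the form of general use had the higher mean in each set named here. Cox4i1 was at 171 ± 31.5 FPKM, and its partner Cox4i2, known from lung and hypoxic cells, was listed at 0 to 0.048 FPKM in the 12 libraries. Cox6a1 averaged 177 FPKM, while the heart and muscle form Cox6a2 reached at most 0.555. Cox8a averaged 209 FPKM and the muscle form Cox8b reached at most 0.150. Ndufa4, whose product is now known as a subunit of complex IV although its symbol places it in complex I here, averaged 58.7 FPKM, against at most 0.116 for Ndufa4l2. The other sets were less one-sided. Cox6b1 had 107 ± 21.4 FPKM beside 5.27 ± 1.79 for Cox6b2, and the muscle form Cox7a1 had 5.81 ± 2.84 beside 51.6 ± 14.7 for Cox7a2 and 91.4 ± 21.01 for Cox7a2l, whose product joins complexes III and IV. Of the 3 genes for the same mature c subunit, Atp5g2 had 121 ± 28.6 FPKM, Atp5g3 109 ± 20.9 and Atp5g1 15.5 ± 6.98. The sources used here do not say how reads shared by related genes or their pseudogene copies were assigned.

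The summed levels of the members overlapped between all 4 treatments. The 93 nuclear members summed to 4654, 5874 and 4021 FPKM in the SiO2 libraries (unnumbered, 1 and 2, in this order throughout), to 5141, 3753 and 5461 FPKM in the DNP-HSA libraries, to 4417, 3767 and 5055 FPKM in the DNP-HSA+SiO2 libraries and to 5505, 5868 and 4062 FPKM in the blank libraries. The 13 mitochondrial members summed to 46989.6, 30085.5 and 53122 FPKM in SiO2, to 37235, 36536 and 30729 FPKM in DNP-HSA, to 40863, 46402 and 24251 FPKM in DNP-HSA+SiO2 and to 32605, 34169 and 46133 FPKM in blank. In each treatment the numbered library with S100a8 under 1 FPKM had the lowest nuclear sum, and the numbered library with S100a8 over 1 FPKM had the highest. The order was turned round for the mitochondrial sums of these libraries, so that the ratio of mitochondrial to nuclear mRNA separated them.

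**Figure D1:**
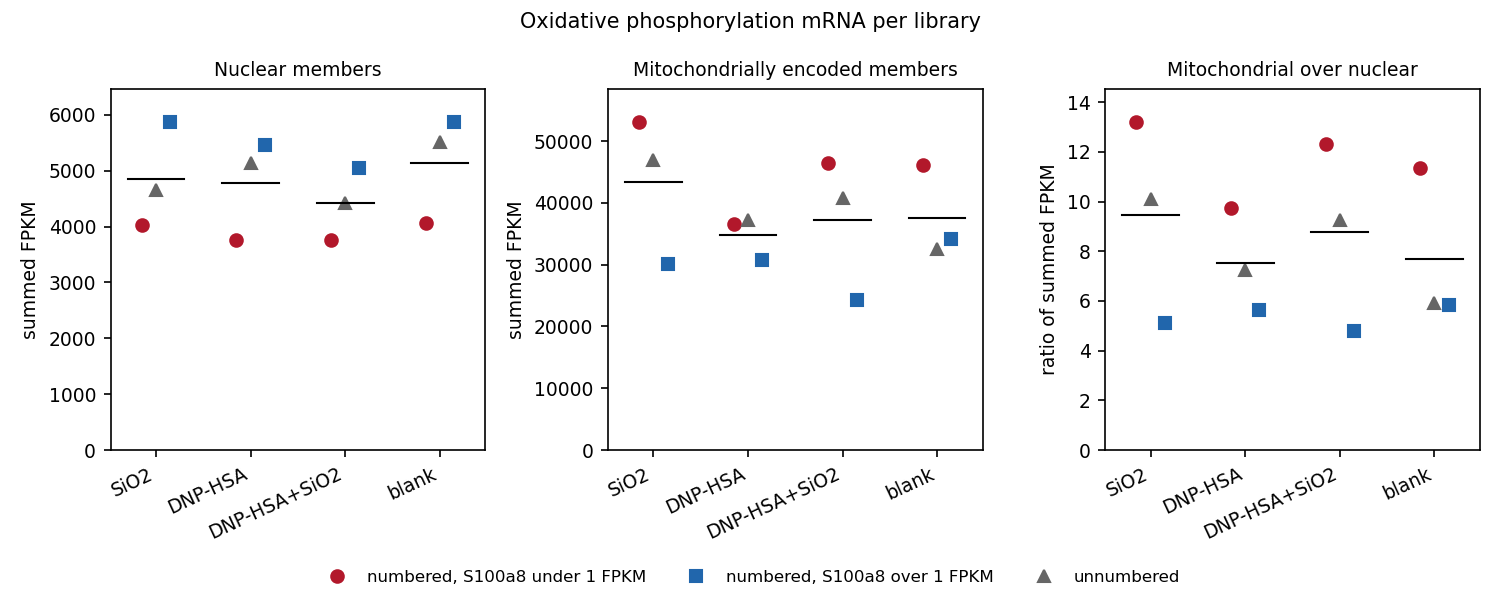
Summed FPKM of the 93 nuclear members (left) and the 13 mitochondrially encoded members (middle) and their ratio (right), with 1 point for each of the 12 libraries, in SiO2, DNP-HSA, DNP-HSA+SiO2 and blank. Horizontal bars are means of 3 libraries, and red circles, blue squares and grey triangles mark the 3 sets of libraries. In every treatment the red circle lies lowest on the left, and the ratio is 9.74 to 13.2 in the red circles and 4.80 to 5.82 in the blue squares.

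The ratio of mitochondrial to nuclear summed FPKM was 10.1, 5.12 and 13.2 in SiO2, 7.24, 9.74 and 5.63 in DNP-HSA, 9.25, 12.3 and 4.80 in DNP-HSA+SiO2 and 5.92, 5.82 and 11.4 in blank. The groups overlapped in every pair. The mean was 9.48 ± 4.08 in SiO2, 7.54 ± 2.07 in DNP-HSA, 8.79 ± 3.78 in DNP-HSA+SiO2 and 7.70 ± 3.17 in blank (SD, n = 3 each). The mean log2 ratio differed from that of blank by 0.27 in SiO2 (exact permutation p = 0.70), 0.01 in DNP-HSA (exact permutation p = 1.0) and 0.16 in DNP-HSA+SiO2 (exact permutation p = 0.90). DNP-HSA+SiO2 differed from DNP-HSA by 0.15 (exact permutation p = 0.80) and from SiO2 by -0.11 (exact permutation p = 0.70). The unnumbered libraries averaged 8.13 ± 1.896 (n = 4) and the numbered ones 8.50 ± 3.53 (n = 8), a log2 difference of 0.02 by the means of the log2 ratios (exact permutation p = 0.94). All 6 tests were two-sided with an adjusted p of 1.0 (Benjamini-Hochberg over the 6), and 3 libraries against 3 cannot give a p below 0.10. Within the 3 sets, the log2 ratio in SiO2 minus that in blank was 0.77 for the unnumbered libraries, -0.18 for the numbered libraries with S100a8 over 1 FPKM and 0.22 for those with S100a8 under 1 FPKM. In the same order it was 0.29, -0.05 and -0.22 for DNP-HSA and 0.64, -0.28 and 0.12 for DNP-HSA+SiO2. Against blank, no treatment had the same sign in all 3 sets. DNP-HSA+SiO2 minus DNP-HSA was 0.35, -0.23 and 0.34. DNP-HSA+SiO2 minus SiO2 was -0.13, -0.09 and -0.10, below 0 in all 3 sets. Each of these values is a difference of 1 library and 1 library.

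The difference between the numbered sets ran through the complexes and had opposite signs for nuclear and mitochondrial mRNAs. Of the 87 nuclear members tested, 61 (70.1%) were lower in all 4 numbered libraries with S100a8 under 1 FPKM than in all 4 with S100a8 over 1 FPKM, where 17.3% of all 12862 genes were, and 0 were higher in all 4. Of the 13 mitochondrial mRNAs, 8 (61.5%) were higher in all 4, where 17% of all genes were, and 0 were lower in all 4. These counts rest on CPM, each count relative to its library total on the TMM scale, which sets libraries level by the bulk of their genes. They describe sets chosen after the values were seen, so no test is given. The nuclear genes that were lower in all 4 numbered 29 of 38 in complex I, 4 of 4 in complex II, 6 of 9 in complex III, 8 of 17 in complex IV and 12 of 15 in complex V. The median difference in log2 CPM was -0.51 over the nuclear members and 0.83 over the mitochondrial ones, beside 0.00 over all genes. Of the 11 macrophage and neutrophil markers, S100a8 included, 10 were lower in all 4 libraries with low S100a8, where their sum was 23.5 to 43.1 FPKM and 4 of them were at 0 in every library, than in the others, where it was 98.7 to 130 FPKM. Lyz2, a lysozyme gene of myeloid cells, had the highest level among them, 17.9 to 34.0 FPKM in the libraries with low S100a8 and 60.1 to 87.8 FPKM in the others. Of 4 basophil markers, Mcpt8 (0.774 to 1.11 and 2.92 to 5.32 FPKM) and Prss34 were lower in all 4, Cd200r3 and Itga2 overlapped, and the sum overlapped at 127 to 167 and 122 to 161 FPKM. Of 10 mast cell markers 3 were lower in all 4 and 2 higher, and their sum was 20808 to 22461 FPKM in the libraries with low S100a8 and 22837 to 27459 FPKM in the others. The proliferation gene Mki67 was at 8.99 to 11.3 FPKM in the libraries with low S100a8 and at 8.59 to 15.5 in the others. In each treatment the library with low S100a8 also held fewer estimated counts, though the sets overlapped. The libraries with low S100a8 held 60634426, 66678016, 55737606 and 61103909 in SiO2, DNP-HSA, DNP-HSA+SiO2 and blank. The others held 70921993, 76718065, 67548949 and 62371985 in the same order. The part of the marked cell types and of depth in the pattern was not tested. In bulk RNA fewer cells of a type and less RNA per cell cannot be told apart.

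**Figure D2:**
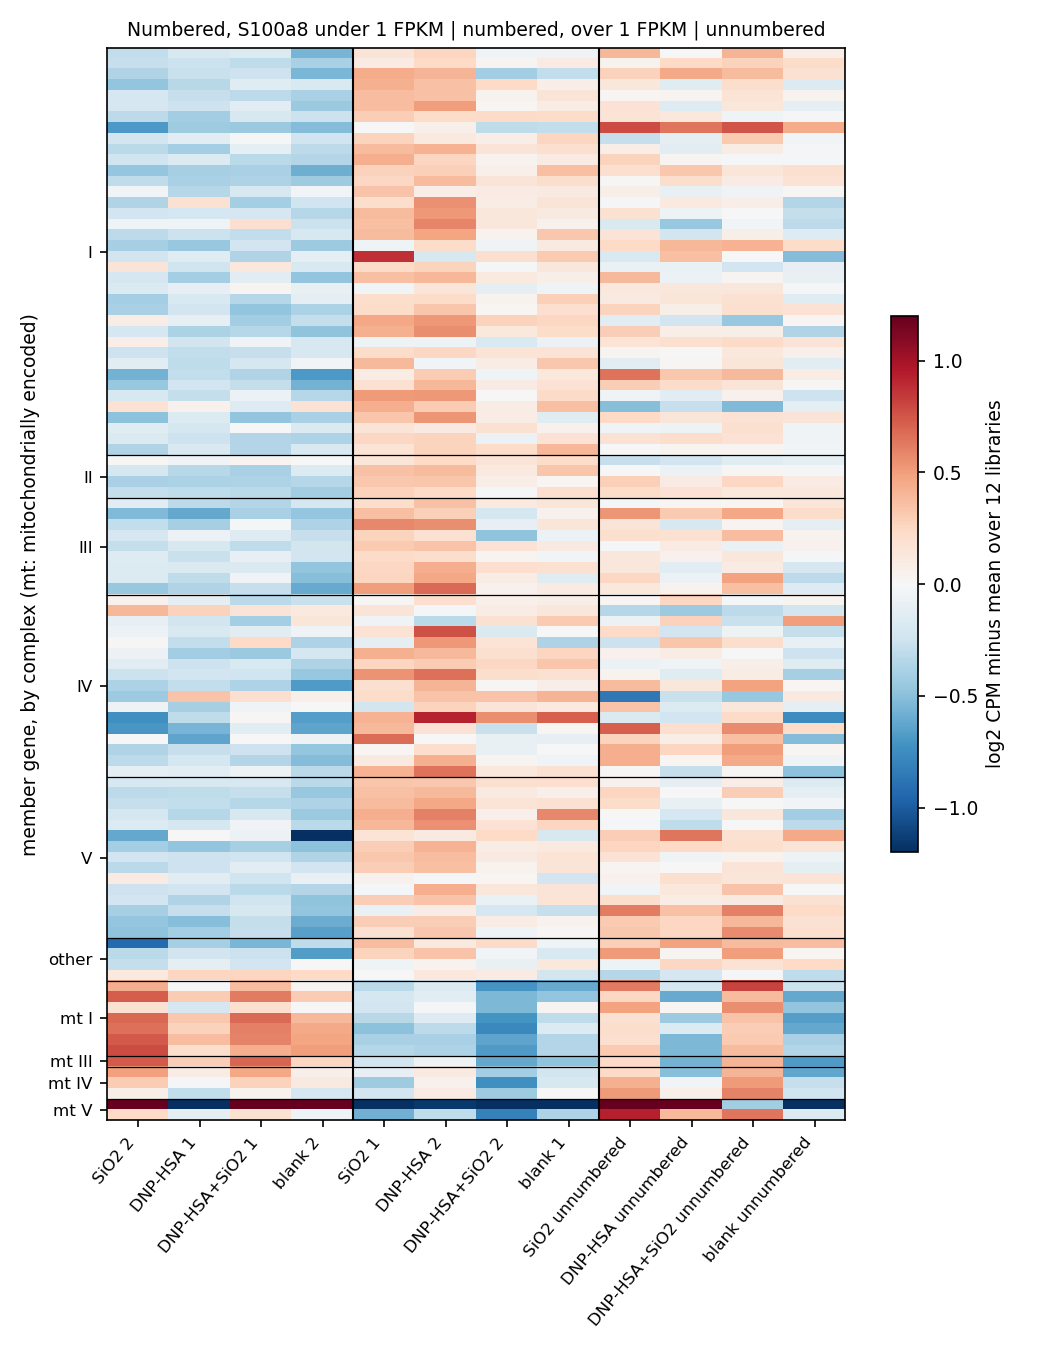
Log2 CPM of the 100 members tested, each minus its own mean over the 12 libraries, with rows ordered by complex (87 nuclear members above, 13 mitochondrially encoded below) and columns by library set. Blue is below and red above the gene's mean, with the strongest colours reached by mt-Atp6. Between 76 and 81 of the 87 nuclear members are below their mean in the 4 leftmost libraries and 6 to 23 in the next 4.

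Individual genes show the pattern. Atp5b was at 194, 190, 184 and 194 FPKM in SiO2 2, DNP-HSA 1, DNP-HSA+SiO2 1 and blank 2, and at 302, 270.1, 264 and 279.8 FPKM in SiO2 1, DNP-HSA 2, DNP-HSA+SiO2 2 and blank 1. The first 4 lie in a narrow band well below the others, whatever the treatment. Cox6a1 was at 146, 143, 134 and 139 FPKM in the first of these sets and at 259, 244, 204 and 226 FPKM in the other. Ndufa8, which encodes an accessory subunit of complex I, was at 23.2, 23.4, 22.2 and 23.3 FPKM in the first and at 39.8, 34.7, 34.0 and 47.5 FPKM in the other. Both sets were again apart in these genes. The largest difference among the nuclear members was that of Cox7a1 (-1.08 in log2 CPM), with 2.76, 4.08, 5.01 and 3.18 FPKM in the first set and 7.84, 10.1, 8.67 and 11.04 FPKM in the other. Not all members followed it: 61 of the 87 nuclear members were apart, and in the rest the sets overlapped. Among those that overlapped were Ndufs1 (-0.001), Atp5j (-0.04), Ndufb7 (-0.07) and Cox4i1 (-0.16). Only Cox11, which encodes a copper insertion factor of complex IV, and Tcirg1 had a difference above 0 (0.14 and 0.22), and in both the sets overlapped.

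Of the mitochondrial mRNAs, 6 of 7 complex I genes, the complex III gene and mt-Atp8 of complex V were apart between the sets. mt-Nd5, which encodes a proton-pumping subunit, was at 1860.3, 1383, 1522 and 1694 FPKM in the numbered libraries with S100a8 under 1 FPKM (SiO2 2, DNP-HSA 1, DNP-HSA+SiO2 1 and blank 2) and at 866, 748, 727 and 994 FPKM in those over 1 FPKM. mt-Cytb, the cytochrome b gene, averaged 4498 ± 673 FPKM in the first and 2549 ± 301 in the other (SD, n = 4 each), and mt-Nd4, a further pump subunit gene, 2418 ± 291 and 1329 ± 214 FPKM. In mt-Nd1, mt-Nd2, mt-Nd4, mt-Nd4l, mt-Nd5, mt-Nd6, mt-Cytb and mt-Atp8 all 4 libraries of the first set were above all 4 of the other. mt-Co1, mt-Co2, mt-Co3, mt-Nd3 and mt-Atp6 overlapped, although mt-Atp6 had the largest difference among the members tested (2.21 in log2 CPM). mt-Co3, a core subunit gene of complex IV, averaged 3222 ± 377 in the first set and 3215 ± 563 FPKM in the other. The 3 core genes of complex IV were nevertheless among the most abundant mRNAs, mt-Co1 at 8918 ± 1774 FPKM, mt-Co2 at 4695 ± 853 and mt-Co3 at 3452 ± 523 (SD over 12 libraries). mt-Nd4l and mt-Nd4 share 7 bases on the same strand and mt-Nd5 and mt-Nd6 share 14 on opposite strands. The libraries mark strand, but whether the counting used it is not given, so the values of these pairs are uncertain to that extent. The libraries were also selected for polyadenylated RNA, so a level of a mitochondrial mRNA depends on its tail as well as its amount.

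mt-Atp6 had the widest range among the 100 members tested. Its level was 5805, 509 and 3993 FPKM in SiO2, 4755, 555 and 530.5 FPKM in DNP-HSA, 796, 3457 and 397 FPKM in DNP-HSA+SiO2 and 663, 640.4 and 3779 FPKM in blank. The 12 values fell into 7 libraries at 397 to 796 FPKM and 5 at 3457 to 5805 FPKM with none between. SiO2 gave 2 libraries to the upper range and 1 to the lower, and DNP-HSA, DNP-HSA+SiO2 and blank each gave 1 to the upper and 2 to the lower. By library set, the upper range held SiO2 2, DNP-HSA+SiO2 1 and blank 2, all numbered with S100a8 under 1 FPKM. It also held the unnumbered SiO2 and DNP-HSA libraries, but none of the numbered libraries with S100a8 over 1 FPKM. The highest value was 14.6 times the lowest, beside 1.62 to 2.83 times for the other 12 mitochondrial mRNAs. mt-Atp8, which overlaps it, was at 7703, 3221 and 5578 FPKM in SiO2, 6451, 4222 and 3366 FPKM in DNP-HSA, 5861, 4876 and 2721 FPKM in DNP-HSA+SiO2 and 5074, 4169 and 5001 FPKM in blank, with no gap of that kind. The shared 43 bases make up a larger part of mt-Atp8 (204 bases) than of mt-Atp6 (681 bases), mt-Atp6 also shares 1 base with mt-Co3, and how the authors' estimate divided reads among these genes is not given. Both levels are therefore uncertain, and the part of read assignment in the split of mt-Atp6 was not tested. Without mt-Atp6 the ratio of mitochondrial to nuclear FPKM was 9.59 to 12.2 in the numbered libraries with S100a8 under 1 FPKM and 4.72 to 5.71 in those over 1 FPKM.

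**Figure D3:**
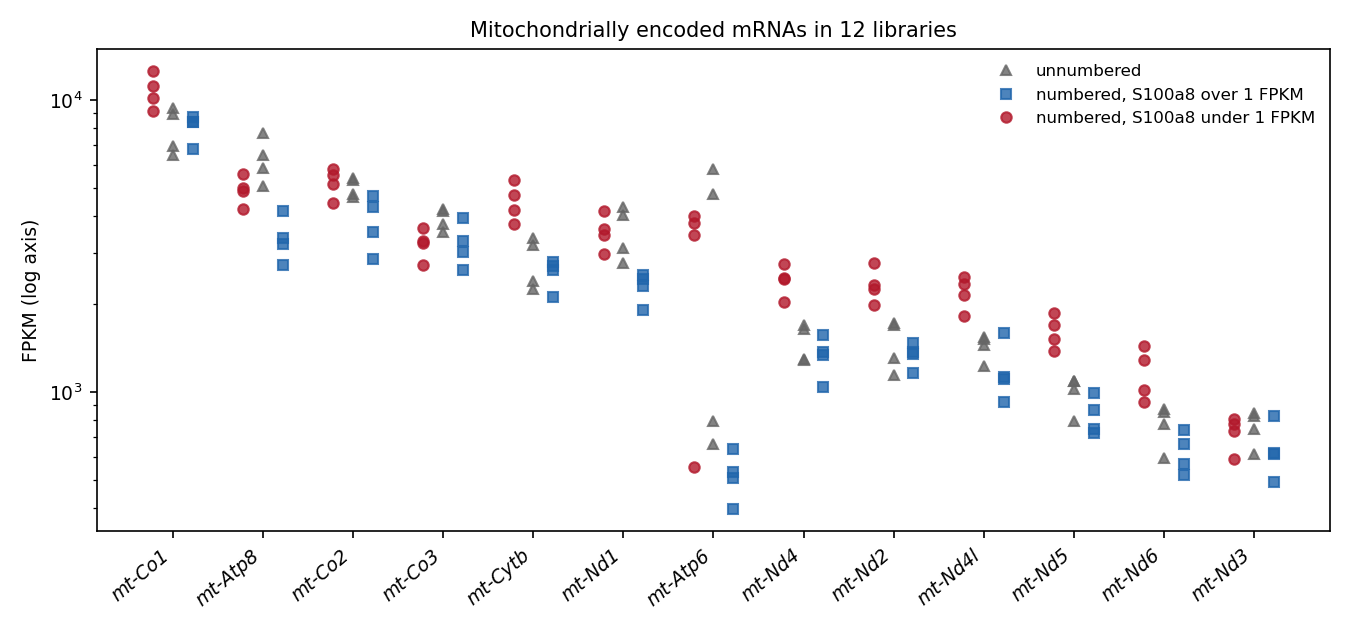
FPKM of the 13 mitochondrially encoded mRNAs on a log axis, ordered by mean level, with 1 point for each of the 12 libraries and the same colours for the 3 sets. mt-Atp6 splits into 5 libraries at 3457 to 5805 FPKM and 7 at 397 to 796 FPKM, and the red circles lie above the blue squares in mt-Cytb, mt-Nd1, mt-Nd2, mt-Nd4, mt-Nd4l, mt-Nd5, mt-Nd6 and mt-Atp8.

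The promoters of the nuclear members were also read for letters that known regulators of respiratory genes bind. Whether these letters go with the difference between the library sets was not tested. The promoters are those of RefSeq for GRCm38.p6, 250 bases before to 50 after the start, and 74 of the 93 nuclear members matched, with 81 promoters. The motifs were GCGCANGCG for NRF1, CCGGAAG for ETS factors such as GABPA and ATGGCGG for YY1, searched on both strands, where NRF1 matches on opposite strands can overlap. The NRF1 letters stood in 27.2% of the member promoters against 6.25% of all 32851 promoters, the ETS letters in 22.2% against 8.86% and the YY1 letters in 16.0% against 4.05%. At least 1 of the 3 stood in 53.1% of the member promoters and in 16.6% of all. The set of all promoters was not limited to genes expressed in these cells and was not matched for base content. A match is a description of the letters and not of a bound site. The promoters of Ndufa8 and Cox6a1 are shown because both genes were apart between the numbered sets and hold such matches, which are in capitals. Atp5d was apart as well (-0.72 in log2 CPM), and its promoters hold 0 matches. The capitals in Ndufa8 are 2 NRF1 matches, and those in Cox6a1 are 3 NRF1 matches, of which 2 overlap, and then 1 ETS match.
Ndufa8 (chr2:36049289-36049588, minus strand): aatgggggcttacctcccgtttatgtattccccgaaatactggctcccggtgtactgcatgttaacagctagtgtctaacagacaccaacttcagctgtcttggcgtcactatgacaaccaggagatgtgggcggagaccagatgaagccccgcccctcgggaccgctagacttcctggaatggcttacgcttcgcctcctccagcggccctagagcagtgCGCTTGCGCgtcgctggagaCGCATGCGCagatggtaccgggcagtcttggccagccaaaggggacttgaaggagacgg
Cox6a1 (chr5:115348909-115349208, minus strand): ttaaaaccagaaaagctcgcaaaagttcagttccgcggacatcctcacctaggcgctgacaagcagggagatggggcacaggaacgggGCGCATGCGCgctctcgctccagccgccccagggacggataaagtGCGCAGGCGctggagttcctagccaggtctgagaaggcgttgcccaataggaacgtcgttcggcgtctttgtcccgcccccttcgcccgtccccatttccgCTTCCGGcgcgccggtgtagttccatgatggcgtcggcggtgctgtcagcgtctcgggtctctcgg

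No member passed the threshold in SiO2 cells against blank cells. At an adjusted p under 0.05 (edgeR quasi-likelihood F-test, Benjamini-Hochberg over all genes tested) 0 of 100 members were called, where 0.0622% of all genes were, and 1 had an unadjusted p under 0.05, where 8.03% of all genes did. Fits with DESeq2, which called 2.15% of all genes, and with limma, which called 0.233% or 0.342% by the pseudocount, also called 0 members. That member was Cox7a2l, at 132, 175 and 109 CPM in SiO2 and 76.1, 102 and 105 CPM in blank. All SiO2 libraries were above all blank libraries, and the log2 change was 0.56 with a standard error of 0.25 (edgeR adjusted p = 0.61). Uqcrh had 85.5, 86.0 and 64.3 CPM in SiO2 and 57.9, 65.3 and 50.5 CPM in blank, which overlap (log2 change 0.44, standard error 0.23). Cox15, whose product makes heme A for complex IV, had 27.3, 27.9 and 26.8 CPM in SiO2 and 40.9, 35.8 and 31.8 CPM in blank, which do not overlap (log2 change -0.40, standard error 0.21, edgeR adjusted p = 0.69). The median log2 change was 0.15 over the nuclear members and 0.37 over the mitochondrial ones, beside -0.01 over all genes. On the scale of total counts, which moves the median of all genes to -0.27 for SiO2, -0.25 for DNP-HSA and -0.35 for DNP-HSA+SiO2, each against blank, the nuclear median for SiO2 was -0.13 and the mitochondrial one 0.12, so the sign for the nuclear members goes with the scaling.

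**Figure D4:**
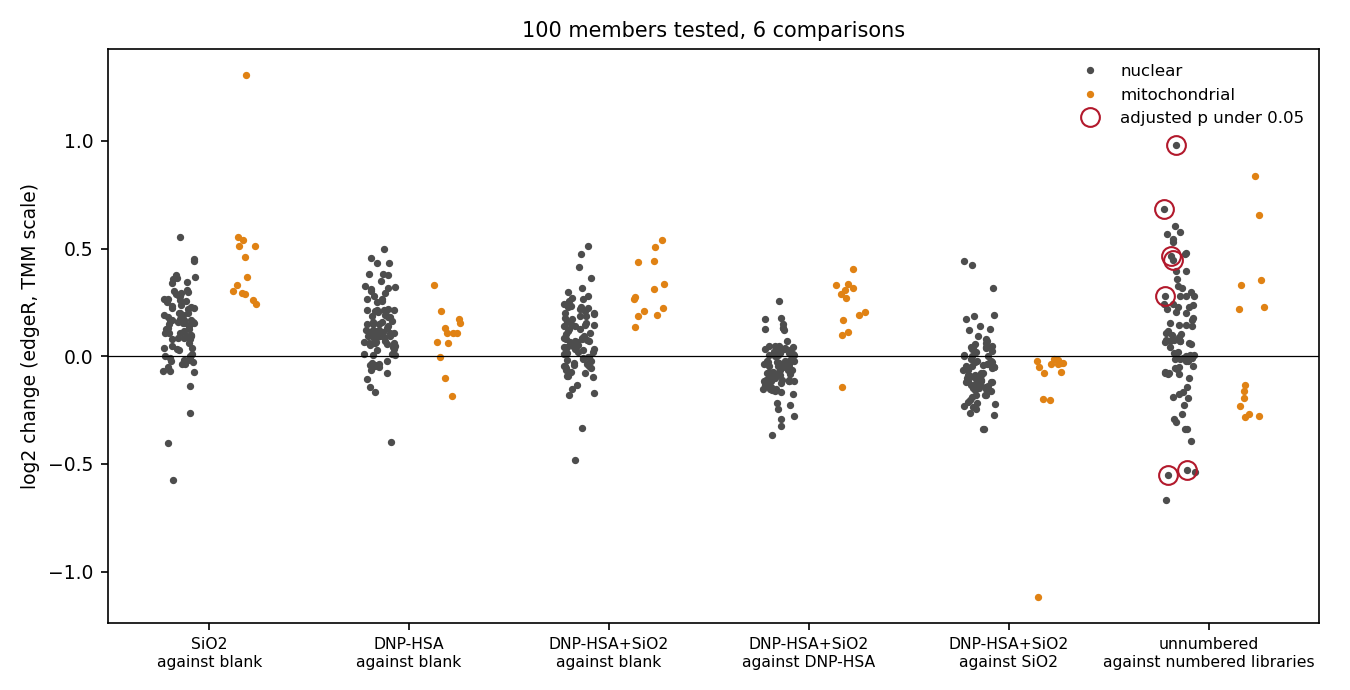
Log2 change of each of the 100 members tested in 6 comparisons (edgeR, TMM scale), 1 point per gene, with the 87 nuclear members in grey and the 13 mitochondrial ones in orange. Red rings mark the members with an adjusted p under 0.05, which are 0 in each of the 5 comparisons between treatments and 7 in the unnumbered against the numbered libraries.

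The same held for DNP-HSA cells against blank cells: 0 of 100 members were called, beside 0.218% of all genes, and 1 had an unadjusted p under 0.05, beside 7.38% of all genes. That member was Cox4i1, which encodes a core-associated subunit of complex IV, at 177, 115 and 202 CPM in DNP-HSA and 132, 108 and 109 CPM in blank, which overlap (log2 change 0.50, standard error 0.20, edgeR adjusted p = 0.57). Cox15 was at 34.8, 24.6 and 22.8 CPM in DNP-HSA and at 40.9, 35.8 and 31.8 CPM in blank (log2 change -0.40), and Ndufb10, an accessory subunit gene of complex I, averaged 43.3 ± 7.35 CPM in DNP-HSA and 32.1 ± 6.19 CPM in blank (SD, n = 3 each), a log2 change of 0.43. The median log2 change was 0.11 over the nuclear and 0.11 over the mitochondrial members, and -0.15 and -0.14 on the scale of total counts.

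In DNP-HSA+SiO2 cells against blank cells 0 of 100 members were called, beside 0.575% of all genes, and 3 had an unadjusted p under 0.05, beside 12% of all genes. Cox4i1 was at 162, 165 and 158 CPM in DNP-HSA+SiO2 and at 132, 108 and 109 CPM in blank, without overlap (log2 change 0.47, standard error 0.20, edgeR adjusted p = 0.39). Uqcrh was at 101, 69.8 and 76.8 CPM in DNP-HSA+SiO2, also above all 3 blank libraries (log2 change 0.51, standard error 0.23, edgeR adjusted p = 0.42). Cox15 was at 23.8, 21.4 and 32.6 CPM in DNP-HSA+SiO2 and overlapped with blank (log2 change -0.48, standard error 0.21, edgeR adjusted p = 0.40). These 3 comparisons share the blank libraries, so like values in them are not independent. The median log2 change was 0.07 over the nuclear and 0.28 over the mitochondrial members, against -0.28 and -0.10 on the scale of total counts.

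Adding SiO2 to DNP-HSA or DNP-HSA to SiO2 gave no call either. In DNP-HSA+SiO2 against DNP-HSA, 0 of 100 members and 0% of all genes were called, and 0 members had an unadjusted p under 0.05, beside 0.645% of all genes. The member with the smallest p was Ndufb10, with 33.7 ± 6.32 CPM in DNP-HSA+SiO2 and 43.3 ± 7.35 CPM in DNP-HSA (SD, n = 3 each), without overlap and with a log2 change of -0.36 (standard error 0.22). The copper chaperone gene Cox17 followed at 19.5 ± 0.84 CPM in DNP-HSA+SiO2 and 24.4 ± 10.5 CPM in DNP-HSA, and Ndufv1, the gene of the NADH-binding subunit, at 48.0 ± 3.42 CPM in DNP-HSA+SiO2 and 42.4 ± 4.72 CPM in DNP-HSA. In DNP-HSA+SiO2 against SiO2, 0 of 100 members and 0% of all genes were called, with 0 members at an unadjusted p under 0.05 beside 1.08% of all genes. Cox4i1 had the smallest p, at 162, 165 and 158 CPM in DNP-HSA+SiO2 and 117, 130 and 142 CPM in SiO2 (log2 change 0.32, standard error 0.20, without overlap). The complex I subunit genes Ndufa7 and Ndufc1 came next, with log2 changes of -0.27 and -0.34. For the interaction of SiO2 and DNP-HSA, 0 of 100 members were called beside 0.0233% of all genes, and 0 had an unadjusted p under 0.05 beside 2.08% of all genes. The smallest p values belonged to Cox17 (-0.55, standard error 0.37), Ndufb10 (-0.46, standard error 0.32) and Ndufa11 (-0.65, standard error 0.46), all on the log2 scale.

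The fit behind these tests has no term for the library sets, so the difference between the sets is part of the spread that its errors measure. The standard error of a log2 change in SiO2 against blank was 0.15 to 0.59 over the nuclear members (median 0.26) and 0.28 to 1.19 over the mitochondrial ones (median 0.39), with the highest for mt-Atp6. Within the sets, the median of log2 CPM over the nuclear members in SiO2 minus that in blank was 0.16 in the unnumbered libraries, 0.15 in the numbered ones with S100a8 over 1 FPKM and 0.09 in those under 1 FPKM. It was 0.06, 0.21 and 0.09 for DNP-HSA and 0.16, -0.04 and 0.10 for DNP-HSA+SiO2 in the same order. For the mitochondrial members it was 0.79, 0.02 and 0.40 for SiO2, 0.26, 0.19 and -0.17 for DNP-HSA and 0.88, -0.33 and 0.20 for DNP-HSA+SiO2. Each of these is a difference of 1 library and 1 library and has no replicate. The nuclear difference was above 0 in all 3 sets for SiO2 and for DNP-HSA, on the TMM scale. On the scale of total counts, the median log2 changes over the nuclear members given above were below 0 for both treatments. In SiO2 and blank, libraries of the same number belong to the same set, and a fit with the replicate number as a block called 0 members (edgeR), with 7 of 100 at an unadjusted p under 0.05 beside 15.0% of all genes.

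Some members were called between the 4 unnumbered and the 8 numbered libraries, but a smaller share than of all genes. These libraries were compared with the treatment as a term of the fit. The fit has no term for the numbered sets, which were apart in a larger share of members than of all genes. That difference is part of the spread, so the smaller share called need not mean smaller differences. No source says what the missing number stands for. Of the 100 members 7 were called, where 25.1% of all genes were. Of these, 5 were higher, beside 12.1% of all genes, and 2 lower, beside 12.9%. An unadjusted p under 0.05 (edgeR) was found for 19 members, beside 37.8% of all genes. Ndufa4 was at 67.7, 61.3, 66.6 and 53.6 CPM in the unnumbered SiO2, DNP-HSA, DNP-HSA+SiO2 and blank libraries and at 24.1 to 40.9 CPM (median 30.3) in the numbered libraries. The libraries did not overlap, and the log2 change was 0.98 (standard error 0.15, edgeR adjusted p = 0.0011). Atp5l, which encodes subunit g of the membrane part of ATP synthase, was at 117, 97.1, 116 and 89.7 CPM in the unnumbered libraries and at 54.4 to 80.6 CPM (median 64.0) in the numbered ones (log2 change 0.68, standard error 0.11, edgeR adjusted p = 0.0019). Ndufs1, the gene of the largest iron-sulfur subunit of complex I, was at 65.6, 66.9, 68.6 and 65.0 CPM in the unnumbered libraries and at 50.2 to 61.7 CPM (median 55.7) in the numbered ones (log2 change 0.28, edgeR adjusted p = 0.035). Ndufb4 was at 42.0, 46.9, 47.6 and 41.4 CPM against 25.8 to 41.4 CPM (log2 change 0.47, edgeR adjusted p = 0.046), with 41.44 CPM as the lowest unnumbered and 41.39 CPM as the highest numbered library. Cox7b, a small subunit gene of complex IV, was at 85.9, 76.0, 89.8 and 64.6 CPM in the unnumbered libraries and at 45.9 to 73.5 CPM in the numbered ones, which overlap (log2 change 0.45, edgeR adjusted p = 0.043).

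Lower in the unnumbered libraries were Ndufs7, which encodes an iron-sulfur subunit of complex I, and Cox11. Ndufs7 was at 19.1, 22.7, 18.9 and 25.4 CPM in the unnumbered libraries and at 24.7 to 37.5 CPM (median 31.1) in the numbered ones, with a small overlap (log2 change -0.55, standard error 0.12, edgeR adjusted p = 0.0085). Cox11 was at 5.55, 5.19, 5.69 and 6.10 CPM in the unnumbered libraries and at 7.09 to 9.60 CPM (median 8.00) in the numbered ones, without overlap (log2 change -0.53, standard error 0.14, edgeR adjusted p = 0.018). None of the 13 mitochondrial mRNAs was called, and mt-Atp8 had the smallest adjusted p among them (0.068, log2 change 0.66). Cell markers also differed between the unnumbered and the numbered libraries, in both directions within a list. Of 10 mast cell markers, Hdc, Mcpt4, Mrgprb1 and Tpsab1 were called higher and Cma1 lower, and their sum was 17779 to 19855 FPKM in the unnumbered and 20808 to 27459 FPKM in the numbered libraries. Of 11 macrophage and neutrophil markers Adgre1 was called higher (3.94 to 5.56 FPKM in the unnumbered and 0.542 to 2.61 in the numbered libraries) and Lyz2 (3.04 to 3.71 and 17.9 to 87.8 FPKM) and Csf1r lower, and 5 were at 0 in every unnumbered library. Of 4 basophil markers only Mcpt8 was called, higher (20.7 to 24.3 and 0.774 to 5.32 FPKM), and their sum overlapped (123 to 158 and 122 to 167 FPKM). Mki67 was at 23.2 to 51.2 FPKM in the unnumbered and at 8.59 to 15.5 FPKM in the numbered libraries. The part of these differences in the 7 calls was not tested. The number of members called was 7 with all libraries and changed by more than 1.5 times without the unnumbered SiO2 (3), DNP-HSA (3) or DNP-HSA+SiO2 (4) library, without DNP-HSA 2 (11) and without DNP-HSA+SiO2 2 (4). The share of all genes called, 25.1% with all libraries, also moved, and was lowest without the unnumbered SiO2 library (14.4%) and highest without DNP-HSA 2 (27.0%). Over 24 settings Ndufa4 was called in 24, Atp5l in 23, Ndufs7 in 22 and Cox11 in 18, while Ndufb4 and Ndufs1 were called in 8 and Cox7b in 7.

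Genes that serve the complexes without being among the members were read in the same way. In the 5 comparisons between treatments and the interaction, only 0% to 0.575% of all genes were called. Of the genes tested, 0 of 12 regulators of mitochondrial genes were called. The same was true of 0 of 20 genes for mitochondrial DNA maintenance, transcription and RNA handling, 0 of 40 assembly factors and 0 of 19 carrier and cofactor genes. In DNP-HSA+SiO2 against blank, 2, 2, 2 and 4 genes of these lists, in this order, had an unadjusted p under 0.05 (edgeR). Beside them stood 12% of all genes. Ppargc1a, a coactivator of mitochondrial biogenesis known from muscle and brown fat, was at 0 to 0.017 FPKM, whereas Nrf1 was at 6.52 to 10.9 FPKM and Gabpa at 8.65 to 15.8 FPKM. Between the unnumbered and the numbered libraries, where 12.1% of all genes were called higher and 12.9% lower, 2 of 12 regulators were called lower, Sirt3, a mitochondrial deacetylase gene (log2 change -0.51, edgeR adjusted p = 0.021), and Yy1 (-0.29). Of the 20 mitochondrial expression genes Pnpt1, an RNA import and degradation factor, was higher (0.72) and Polg, the mitochondrial DNA polymerase gene, was lower (-0.84). Of the 40 assembly factors 4 were lower, a share near that of all genes, with Sco1 (-1.01) and Surf1 (-0.52), which act on complex IV, among them, and 0 were higher. Of the 19 carrier and cofactor genes 2 were higher, the adenine nucleotide carrier Slc25a5 (0.77) and the ATP synthase inhibitor Atpif1 (0.26), and 3 were lower, the uncoupling protein Ucp2 (-0.56) and the coenzyme Q genes Coq4 (-0.65) and Coq5 (-0.32).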

How the data were processed

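Tools listed without a role in the submitters' processing notes are StringTie 1.3.4d, HISAT2 2.0.4, cutadapt 1.9, edgeR and DESeq2, and a genome build is not given there. RNA was selected with oligo(dT) and the libraries mark strand by dUTP. The authors deposited FPKM and an estimated count for each isoform and library. In a library the estimated counts in the deposited table are proportional to FPKM multiplied by isoform length, and 96.1% to 97.0% of those above 0 equalled that product, scaled, at the next whole number. All 24 value columns were mapped to the 12 libraries by their labels.

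Both were summed per gene. The 12862 genes that reached 1 FPKM in 3 or more libraries were tested with edgeR 4.0.16 (quasi-likelihood F-test, TMM scaling, trended dispersion, robust fit, all 12 libraries, no replicate term), adjusted over all genes of a comparison. The standard error is the size of the log2 change divided by the square root of F. CPM are on the TMM scale. Alternatives used DESeq2 1.42.0, limma 3.58.1 on log2(FPKM + 1) and log2(FPKM + 0.1), other scalings and filters, and fewer libraries. Scripts were tested on simulated data. The members and lists were chosen with earlier results of these data known.

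Named were every member called in a comparison, or else the 3 with the smallest p. For levels, the 2 highest and 2 lowest nuclear members of a complex, the mitochondrial genes and fixed sets of related genes were named. Genes shown for the library sets and promoters were chosen after their values were seen. Libraries of equal number deviated together in SiO2 and blank (correlations of 0.576, 0.599 and 0.581) and in DNP-HSA+SiO2 and DNP-HSA (0.462, 0.573 and 0.297), given for the unnumbered libraries, 1 and 2 in this order. In the other 4 pairs of groups the unnumbered libraries did so too (0.484 to 0.733), whereas those with the same number gave -0.228 to 0.121, and there library 1 of a group went with library 2 of the other (0.441 to 0.575). No label says what a number marks.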

Additional observations from a re-analysis of the deposited data

How the results depend on the processing

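For the 6 comparisons of treatments, 0 members were called under each of the 18 to 24 alternatives run per comparison, which include DESeq2, limma, other scalings and filters, each library left out and the replicate block. Few genes were called in all: 0 to 277 of those tested for SiO2 against blank, 2 to 309 for DNP-HSA, 7 to 592 for DNP-HSA+SiO2 and at most 36 in the other 3. With the replicate block over all 12 libraries 0 members were called, beside 0% to 0.785% of all genes. That block joins libraries of equal number that did not deviate together across some pairs of groups. A block within the pairs whose numbers deviate together also called 0 members. It was run only for SiO2 against blank, DNP-HSA+SiO2 against DNP-HSA and the interaction, so the other comparisons had no matching block. Between the unnumbered and the numbered libraries, the count of 7 (25.1% of all genes) became 12 with DESeq2 (32.5%), 4 on total counts (19.5%), 2 against the libraries numbered 1 (17.4%) and 1 against those numbered 2 (10.1%), and 3 to 11 when each library was left out (14.4% to 27.0%). The fits against 1 number use fewer libraries, and the libraries of either number come from both numbered sets. The part of these in the counts was not tested.

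The differences in the mitochondrial to nuclear ratio changed sign under some alternatives. For the treatments, 3 libraries against 3 cannot pass the threshold, so no call could be made. The values were -0.0206 for DNP-HSA against blank without mt-Co1, mt-Co2, mt-Co3 and mt-Atp6, and, for the unnumbered against the numbered libraries, -0.0449 with medians and -0.0948 with summed counts. Leaving out each library gave -0.0248 to 0.66 for SiO2 against blank, -0.20 to 0.32 for DNP-HSA against blank, -0.14 to 0.55 for DNP-HSA+SiO2 against blank, -0.14 to 0.54 for DNP-HSA+SiO2 against DNP-HSA, -0.50 to 0.28 for DNP-HSA+SiO2 against SiO2 and -0.10 to 0.16 for unnumbered against numbered libraries. Cox17 in DNP-HSA+SiO2 against DNP-HSA became 0.10 without DNP-HSA 2.

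With 3 libraries per group, the median standard error of a nuclear member in SiO2 against blank was 0.26 on the log2 scale.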
